A study of Mus musculus with 8 samples.

Results

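RNA-seq counts were compared between embryonic stem cells (ESCs) and neural precursor cells (NPCs) of the J/B cross, in which the mother was of the JF1 strain and the father of the B6 strain (labelled genotype JF1 x C57BL/6). Both stages came from the male hybrid ESC line JBE6, so that every J/B value rests on a single line. The ESCs, with no further treatment, had been maintained with LIF, BMP4 and an inhibitor of GSK3-β. The NPCs were the same cells at day 12 of *in vitro* corticogenesis, a differentiation on Matrigel in a defined medium with DMH1, which blocks BMP receptors. Medium and stage therefore cannot be told apart. Each stage had 2 libraries, so 4 of the 8 libraries of the series were compared, over all 26263 genes counted, which are the same genes as in the whole series. The other 4 libraries, ESCs and NPCs of the reciprocal B/J cross (line BJE2, B6 mother and JF1 father), were cultured in the same way and were used to estimate the spread between replicates and to test whether the change of a gene differed between the crosses. No source says that replicates were separate differentiations, so p-values measure the spread between these libraries, which may be technical.

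In J/B, 22537138 and 26510098 reads were counted on genes in ESC replicates 1 and 2, and 32706015 and 25621586 in NPC replicates 1 and 2. Reads without a gene amounted to between 6.65% and 10.9% of a library. At 1 CPM or more, CPM being counts relative to the gene total of the library, 12321 and 12435 genes were seen in ESC libraries and 14202 and 14219 in NPC libraries. The 100 most abundant genes took 19.5% to 21.3% of the counts in ESCs and 13.3% to 14.4% in NPCs. The defining markers of both labelled cell types were present: *Pou5f1*, *Nanog*, *Esrrb* and *Zfp42* were each at 94.9 CPM or more in every ESC library, and *Nes*, *Sox1*, *Pax6*, *Fabp7* and *Hes5* were each at 33.8 CPM or more in every NPC library. The replicates of a stage correlated at r = 0.960 in ESCs and 0.969 in NPCs over genes, on the scale of log2(CPM + 1), and genes that set them apart are named at the end. In bulk RNA, fewer cells of a type and less RNA per cell cannot be told apart.

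ESCs are held in a self-renewing state by a circuit of transcription factors, OCT4 (encoded by *Pou5f1*), SOX2 and NANOG, which bind DNA together and act on each other's genes. Neural differentiation replaces this circuit by SOX1, PAX6 and POU3F factors. In neural precursors, Notch receptors on one cell are activated by Delta ligands on its neighbor, the cleaved receptor joins the DNA-binding protein RBPJ, and the HES repressors they induce keep the cell from becoming a neuron. The study these libraries come from concerns *Peg13*, a non-coding RNA made from the paternal allele, and the neighboring potassium channel gene *Kcnk9*, which is expressed from the maternal allele in neural cells.

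A promoter from each of these circuits is shown, because both genes change between the stages. The sequences are those of RefSeq, from a table on GRCm38.p6, and each was matched to a single place in GRCm39, whose coordinates are given. They run 5′ to 3′ up to the base before the annotated start. Capitals mark every match, on either strand, to TTTGCAT, an octamer-like element of the kind OCT4 binds, to ACAATG, the core of a SOX element, and to TGGGAA, the core that RBPJ binds. The *Nanog* promoter (chr6:122684198-122684447, plus strand) held all 3 motifs, with 1 match to each. The *Hes5* promoter (chr4:155045130-155045379, plus strand) held TGGGAA and ACAATG at 2 places each, and no TTTGCAT.
Nanog: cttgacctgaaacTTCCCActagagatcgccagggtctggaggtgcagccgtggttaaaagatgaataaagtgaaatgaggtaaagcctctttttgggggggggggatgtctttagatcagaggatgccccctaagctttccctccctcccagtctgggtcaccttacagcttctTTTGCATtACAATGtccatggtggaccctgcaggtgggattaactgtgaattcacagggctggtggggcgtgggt
Hes5: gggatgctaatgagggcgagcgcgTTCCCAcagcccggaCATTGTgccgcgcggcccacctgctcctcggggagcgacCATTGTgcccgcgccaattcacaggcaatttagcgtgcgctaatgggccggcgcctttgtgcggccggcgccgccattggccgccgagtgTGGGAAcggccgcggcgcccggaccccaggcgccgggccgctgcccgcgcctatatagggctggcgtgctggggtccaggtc

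Both strands were searched in the 250 bases before the start of 27025 genes with such a sequence, and no motif here overlaps another. TTTGCAT was found in 4.06% of these windows, ACAATG in 11.0% and both in 0.662%. With the spacing seen in *Nanog*, a single base between them, they were found in 1 window, that of *Nanog*. Of the 24 pluripotency genes used below, 16 had a sequence, and 3 of these held TTTGCAT, 2 ACAATG and 2 TGGGAA. The RBPJ core TGGGAA was found in 21.5% of all windows and in 6 of 24 genes of the Notch and proneural list. Of these 24, 3 held TTTGCAT and 3 ACAATG. A match is a description of the letters only.

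A change between ESCs and NPCs was found for 8935 of the 16399 genes tested in J/B (54.5%), at a threshold of 0.05 on the adjusted p of the quasi-likelihood test in edgeR. Higher levels in NPCs were called for 4780 genes (29.1%) and lower levels for 4155 (25.3%). Rises were larger than falls: 1557 genes rose and 426 fell by more than 16-fold, and 728 rose and 136 fell by more than 64-fold. The genes that rose held 4.82% and 5.63% of all counts in ESC libraries and 24.5% and 28.8% in NPC libraries. The genes that fell held 68.3% and 65.2% in ESCs and 38.9% and 33.6% in NPCs. The background is therefore high, and each list below is set against 29.1% and 25.3%.

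The scale matters for small changes. CPM values here are relative to library totals, whereas fold changes were fitted after scaling by TMM, which assumes that most genes do not change and gave factors of 0.832 and 0.885 for ESC libraries and 1.20 and 1.21 for NPC libraries. A gene with equal CPM in both stages is therefore fitted as lower in NPCs. With TMM the median log2 fold change of all tested genes was 0.15 and rises were 53.5% of the calls. On library totals alone the median was 0.63 and the share 72.0%, and with *Gapdh*, *Gusb* and *Tbp*, the housekeeping genes of the study, as the scale they were 0.90 and 80.3%. *Gapdh* itself was read at 4289 and 3833 CPM in ESCs and 2573 and 2046 CPM in NPCs, and fell relative to the TMM scale (log2 fold change -1.30 ± 0.22, adjusted p = 0.00231). *Gusb* (18.4 and 12.1 CPM in ESCs and 16.6 and 15.3 CPM in NPCs) and *Tbp* (35.8 and 46.9 CPM in ESCs and 41 and 37.2 CPM in NPCs) did not pass the test (adjusted p = 0.328 and 0.0545), though *Tbp* was called lower in DESeq2 (adjusted p = 0.046) and with the replicate block (0.0494, range 0.046 to 0.778). Without NPC replicate 2, 5700 genes were called (3082 higher and 2618 lower). Without ESC replicate 1, 7051 were called.

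**Figure D1:**
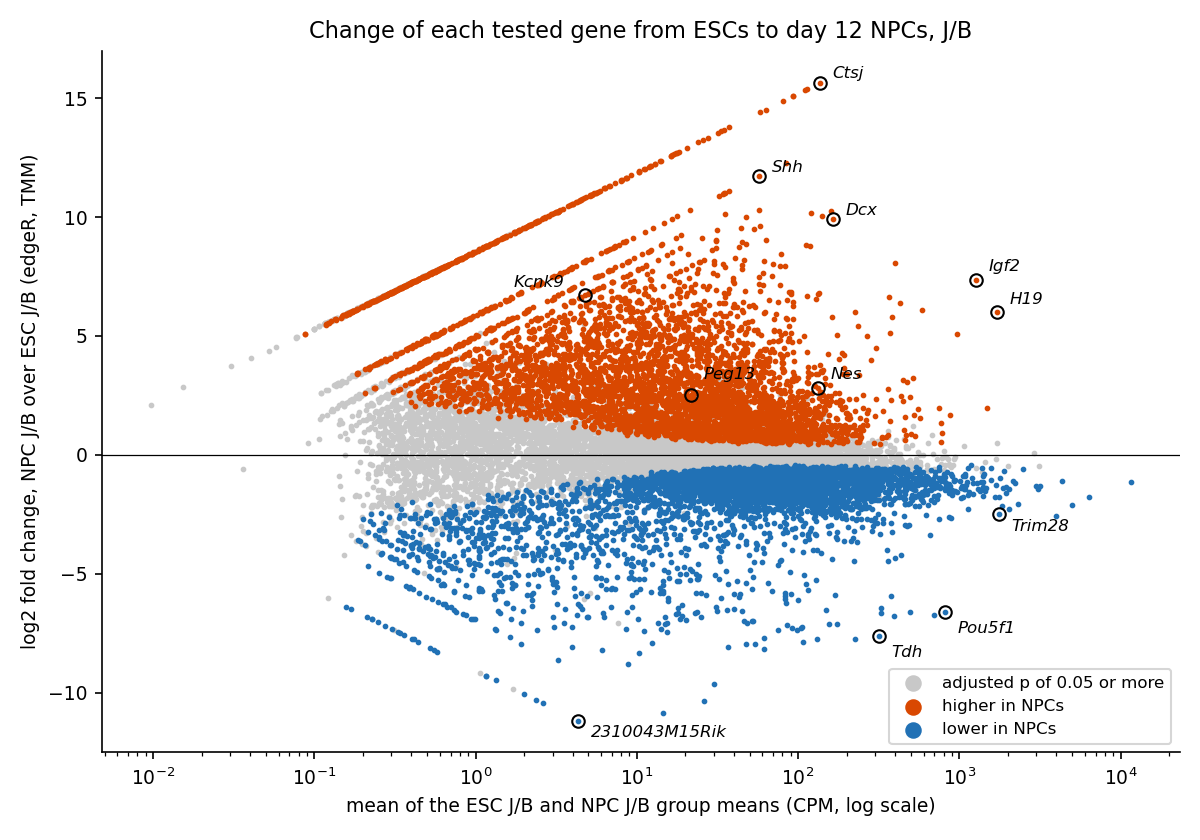
Log2 fold change from ESCs to NPCs in J/B (y axis, edgeR with TMM) against the mean level of each of the 16399 tested genes (x axis, CPM, log scale), colored by call. The 4780 genes called higher in NPCs spread further from 0 than the 4155 called lower, and the straight lines of points at the top are genes with 0, 1 or 2 counts in the ESC libraries, whose fitted fold changes depend on the prior count.

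The pluripotency genes fell, all 24 of 24 (background 25.3%), by a median log2 fold change of -6.49. *Pou5f1* was read at 1846 and 1351 CPM in ESCs and 23.3 and 22.7 CPM in NPCs, a log2 fold change of -6.61 ± 0.58 (SE, adjusted p = 0.000255). *Nanog* was read at 808 and 485 CPM in ESCs and 7.43 and 13.5 CPM in NPCs (-6.45 ± 0.75, adjusted p = 0.000578), and *Esrrb*, an orphan nuclear receptor of the same circuit, at 857 and 432 CPM in ESCs and 6.51 and 11.8 CPM in NPCs (-6.65 ± 0.75, adjusted p = 0.000531). For these 3 genes every ESC library lay above every NPC library, as it did for 37.1% of all genes tested, and the fitted levels were 87.7 to 100.3 times higher in ESCs. The steepest falls of the list were those of *Tdh*, the threonine dehydrogenase on which mouse ESCs depend, and of *Nr0b1*, which encodes the orphan receptor DAX1. *Tdh* was read at 616 and 643 CPM in ESCs and 2.17 and 6.91 CPM in NPCs (-7.62 ± 0.78, adjusted p = 0.000407) and *Nr0b1* at 195 and 144 CPM in ESCs and 0.978 and 2.38 CPM in NPCs (-7.17 ± 0.83, adjusted p = 0.000571). *Dppa5a* and *Tdgf1*, which encodes the Nodal co-receptor CRIPTO, were after *Pou5f1* the most abundant members, and fell to 7.43 and 29.9 CPM and to 8.04 and 20.3 CPM.

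*Sox2*, which neural precursors also express, fell least of the 24 genes, from 391 and 624 CPM to 238 and 182 CPM (-1.75 ± 0.56, adjusted p = 0.0314). The call was lost in 7 of 20 alternatives, among them without ESC replicate 2 (adjusted p = 0.112), without NPC replicate 1 (0.0779), without NPC replicate 2 (0.147) and on library totals (0.0976), over a range of 0.00322 to 0.185. Its levels in NPCs were the highest of the list after *Lin28a*. The sum of the 24 genes stood at 12610 and 9940 CPM in ESCs and 896 and 565 CPM in NPCs, and 22 of them were called lower on library totals and without ESC replicate 2.

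**Figure D2:**
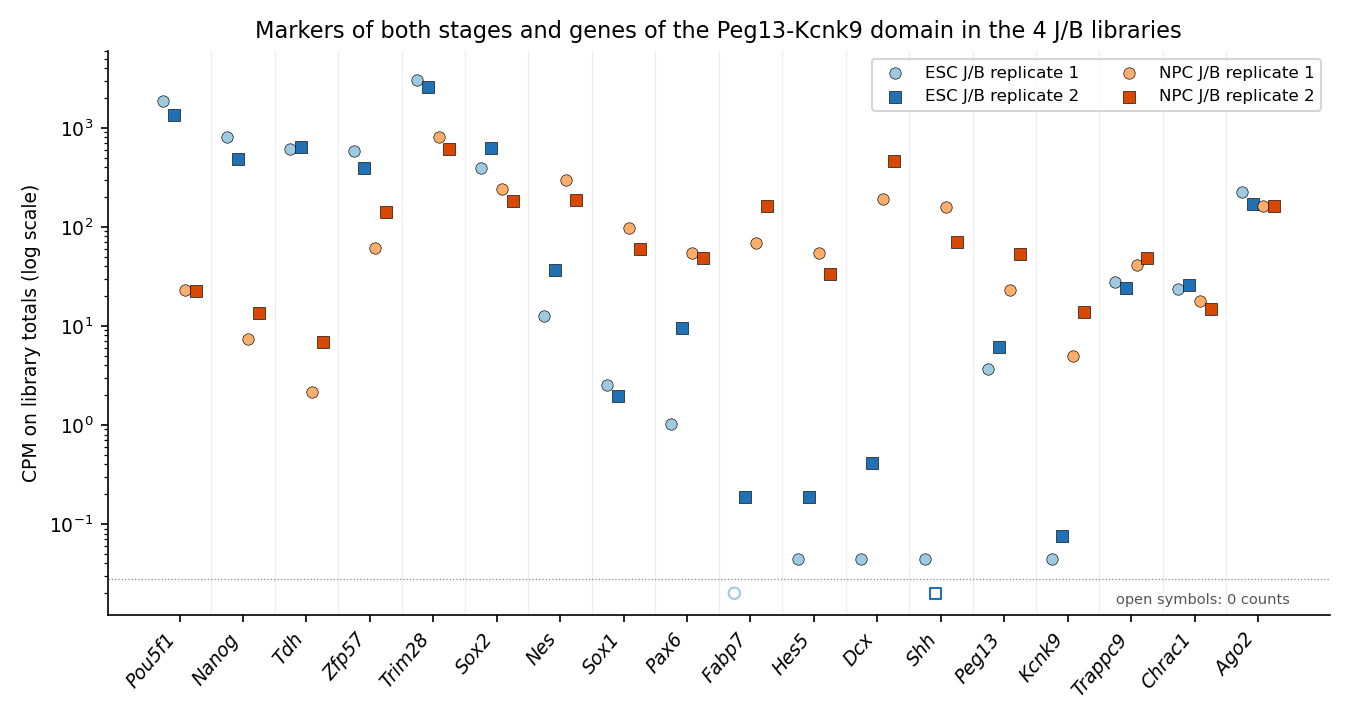
CPM on library totals (y axis, log scale) of markers of both stages and of the 5 genes of the *Peg13*-*Kcnk9* domain, with 1 point for each J/B library and open symbols below the dotted line for 0 counts. *Pou5f1* and *Nanog* drop by more than 1 unit of the log axis in both NPC libraries, *Sox2* and *Ago2* stay in a narrow range, and *Kcnk9* rises from below 0.1 CPM.

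Targets of signals that act in ESCs were set beside these. Of 14 targets of LIF and STAT3, 8 fell and none rose (median -1.30), with 5 falls without NPC replicate 2, and 6 falls and 2 rises on the housekeeping scale. They were led by *Tfcp2l1*, read at 1112 and 441 CPM in ESCs and 7.95 and 12.4 CPM in NPCs (-6.76 ± 0.69, adjusted p = 0.000404). *Klf4* was read at 428 and 408 CPM in ESCs and 38.9 and 53.6 CPM in NPCs (-3.66 ± 0.28, adjusted p = 0.000192), while *Il6st*, the shared receptor subunit of this cytokine family, did not pass the test (114 and 138 CPM in ESCs and 155 and 210.3 CPM in NPCs, adjusted p = 0.847), except as a rise on the housekeeping scale (0.0323, range 0.0323 to 0.997). Of 18 feedback targets of FGF and ERK signaling, 9 fell and 3 rose, with 2 rises without ESC replicate 1 or NPC replicate 1, 1 without NPC replicate 2, 5 without ESC replicate 2, and 6 of each on the housekeeping scale. The transcription factor gene *Etv5* was read at 719.7 and 638 CPM in ESCs and 44.1 and 42 CPM in NPCs (-4.47 ± 0.36, adjusted p = 0.000228) and *Spry2*, an inhibitor of the pathway, at 205 and 205 CPM in ESCs and 33.7 and 28.8 CPM in NPCs (-3.20 ± 0.21, adjusted p = 0.000136). Among 20 Wnt and β-catenin targets, 6 rose and 6 fell with TMM, 9 rose and 5 fell on library totals, and 9 rose and 3 fell on the housekeeping scale. Among 18 BMP targets 8 rose and 3 fell with TMM. *Nkd1*, a Wnt inhibitor induced by the pathway itself, rose from 1.29 and 1.47 CPM to 41.6 and 64.7 CPM (4.78 ± 0.57, adjusted p = 0.000642), whereas the inhibitory *Smad7* fell from 81.5 and 119.9 CPM to 26.8 and 28.4 CPM (-2.35 ± 0.36, adjusted p = 0.0016).

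Of the 24 genes of neural precursors, 20 rose and 1 fell, *Sox2* (median log2 fold change 3.83, background 29.1% and 25.3%). *Nes*, the intermediate filament nestin, was read at 12.5 and 37 CPM in ESCs and 297 and 188 CPM in NPCs (2.83 ± 0.56, adjusted p = 0.00462). *Sox1*, the earliest SOX factor restricted to neural cells, was read at 2.53 and 1.96 CPM in ESCs and 96.6 and 59.3 CPM in NPCs (4.63 ± 0.70, adjusted p = 0.00147). *Vim*, the most abundant member, was read at 188 and 189 CPM in ESCs and 877 and 829 CPM in NPCs (1.69 ± 0.24, adjusted p = 0.00119). Each of these separated the stages without overlap, as was the case for 43.1% of all genes tested, in this direction. The steepest rises of the list were those of *Fabp7*, the lipid-binding protein of radial glia, at 0 and 0.189 CPM in ESCs and 69.3 and 164 CPM in NPCs (9.64 ± 1.32, adjusted p = 0.00102), and of the cerebellar and dorsal neural factor *Zic1*, at 0.355 and 0.415 CPM in ESCs and 100.5 and 375 CPM in NPCs (8.76 ± 0.77, adjusted p = 0.000265). *Pax6*, which specifies dorsal forebrain and eye, was higher in both NPC libraries (1.02 and 9.43 CPM in ESCs and 54.9 and 48.3 CPM in NPCs) but did not pass the test (2.84 ± 1.08, adjusted p = 0.0554). The ESC libraries were far apart. The call was made without ESC replicate 2 (adjusted p = 0.016), and also in DESeq2 (0.00486), in limma-voom (0.0263), with only the J/B libraries (0.0426), on library totals (0.0382) and on the housekeeping scale (0.036, largest value over the alternatives 0.213). Without NPC replicate 1 or NPC replicate 2, 17 of the 24 genes of the list were called higher.

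Of 30 genes of the Notch and proneural pathway, 19 rose and 2 fell (median 2.53). The receptor gene *Notch3* was read at 41.7 and 60.7 CPM in ESCs and 188 and 162 CPM in NPCs (1.30 ± 0.31, adjusted p = 0.0101), a call lost without ESC replicate 1 (adjusted p = 0.0567, range 0.000429 to 0.0907). The target *Hes5*, whose promoter is shown above, was read at 0.0444 and 0.189 CPM in ESCs and 54.1 and 33.8 CPM in NPCs (7.99 ± 1.10, adjusted p = 0.00105). *Heyl*, a further effector of the pathway, had a single count in the ESCs and was read at 13.3 and 16 CPM in NPCs, a ratio of 509 with a 95% counting interval of 91.2 to 20142 with TMM factors (adjusted p = 0.000251). Both effectors were thus close to absent in ESCs. *Neurod4*, a proneural factor downstream of Notch inhibition, had 0 counts in ESCs and 27 and 9.64 CPM in NPCs, at least 227-fold higher when 3 counts over both ESC libraries are taken as the floor (adjusted p = 0.000977). The DNA-binding partner itself moved the other way: *Rbpj* was read at 451 and 274 CPM in ESCs and 162 and 184 CPM in NPCs (-1.56 ± 0.30, adjusted p = 0.00413), though not with the housekeeping scale (adjusted p = 0.0655, range 1.26e-05 to 0.0655).

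Most regional markers of the brain were higher in NPCs. Of 18 genes of the dorsal telencephalon, the region that corticogenesis is meant to produce, 14 rose, none fell and 4 did not pass the test (median 4.96), and 7 of them already averaged at least 1 CPM in ESCs. Their sum was 56.7 and 67.5 CPM in ESCs and 225 and 804 CPM in NPCs. The cortical neuron factors *Neurod6*, *Neurod2* and *Tbr1* were among the 5 genes of at least 10 CPM that differed most in favor of NPC replicate 2. *Neurod6* was read at 0 in both ESC libraries and at 0.887 and 21.5 CPM in NPCs (at least 117-fold higher, adjusted p = 0.0152), so that the bound rests mostly on NPC replicate 2. Its call was lost in a fit with a replicate term for each stage, which compares the stages at replicate 1 only (adjusted p = 0.0718). This fit is named the replicate 1 contrast below. The call of *Neurod6* was also lost without ESC replicate 1 and NPC replicate 2 together, and the range was 2.39e-06 to 0.0718. *Neurod2* was read at 1.1 and 24.7 CPM after 1 count in ESCs, and *Tbr1* at 0.0887 and 0.0377 CPM in ESCs and 2.63 and 42.6 CPM in NPCs (adjusted p = 0.00566). The call of *Tbr1* was lost in limma-voom (adjusted p = 0.0669, range 3.45e-08 to 0.0669). The call of *Neurod2* (adjusted p = 0.0105) was lost there too (0.0508) and in the replicate 1 contrast (0.0555). It was also lost without ESC replicate 1, alone or together with NPC replicate 2. For the list, 11 genes were called higher and 1 lower without NPC replicate 2, and 9 higher and none lower without ESC replicate 1.

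Genes of more caudal and ventral regions were among those that rose. Of 22 genes of midbrain, hindbrain and spinal cord, 14 rose, 1 fell and 7 did not pass the test (median 3.93), and here NPC replicate 1 was the higher library, with a sum of 82.8 and 91.9 CPM in ESCs and 506 and 324 CPM in NPCs. *Shh*, the morphogen of the floor plate and notochord, had 1 count in ESCs and 159 and 70.8 CPM in NPCs, a ratio of 4236 with a 95% counting interval of 760.0 to 167324 (adjusted p = 0.00024). *Lmx1b*, a factor of midbrain and roof plate, was read at 0.399 and 0.528 CPM in ESCs and 32.6 and 34.8 CPM in NPCs (5.68 ± 0.45, adjusted p = 0.000197). *Wnt1*, made at the midbrain-hindbrain boundary and the roof plate, had 1 count in ESCs and 13 and 10.9 CPM in NPCs (adjusted p = 0.00168). *Gbx2*, which ESCs also use, fell from 47.9 and 24.4 CPM to 13.1 and 8.51 CPM (-2.24 ± 0.50, adjusted p = 0.00736), a call lost without NPC replicate 2 (adjusted p = 0.0563, range 3.98e-05 to 0.132). Of 15 genes of the ventral telencephalon and its interneurons, 8 rose and none fell (median 2.35, or 1.77 with genes at 0 in ESCs set to their lower bounds), and 5 were called without NPC replicate 2 and 4 without ESC replicate 1 or without NPC replicate 1. *Ebf1*, a factor of early striatal neurons that other tissues also express, was read at 7.23 and 7.13 CPM in ESCs and 30.9 and 71.8 CPM in NPCs (2.35 ± 0.44, adjusted p = 0.0036).

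Genes of neurons, the product of the precursors, were already present at day 12. Of 26 neuronal genes 19 rose and none fell (median 3.41). Falls were called in the replicate 1 contrast (2 genes) and without either B/J NPC library. The sum of the 26 genes stood at 425 and 589.5 CPM in ESCs and 2051 and 3964 CPM in NPCs. *Dcx*, the microtubule protein of young migrating neurons, was read at 0.0444 and 0.415 CPM in ESCs and 193 and 468 CPM in NPCs (9.92 ± 1.11, adjusted p = 0.000513). *Map2*, which marks dendrites, was read at 11.2 and 39.6 CPM in ESCs and 226 and 523 CPM in NPCs (3.42 ± 0.80, adjusted p = 0.00928), a call lost without ESC replicate 1 and NPC replicate 2 together (adjusted p = 0.103, range 2.25e-06 to 0.103). *Nhlh1*, a factor of newborn neurons, had 0 counts in ESCs and 50.3 and 45.7 CPM in NPCs (at least 566-fold higher, adjusted p = 0.000536), with the replicates close together. *Gria2*, an AMPA receptor subunit, had 1 count in ESCs and 15.1 and 121 CPM in NPCs (adjusted p = 0.00203), with replicate 2 far above replicate 1. Of 14 glial genes, 13 were tested, 5 rose and 3 fell, and 3 rose without ESC replicate 2, NPC replicate 1 or NPC replicate 2. *Slc1a2*, the glutamate transporter of astrocytes, rose from a single count to 43.8 and 96.2 CPM (adjusted p = 0.000447), while *Apoe*, abundant in ESCs too, fell from 437 and 599.7 CPM to 100 and 101 CPM (-2.85 ± 0.25, adjusted p = 0.000252).

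**Figure D3:**
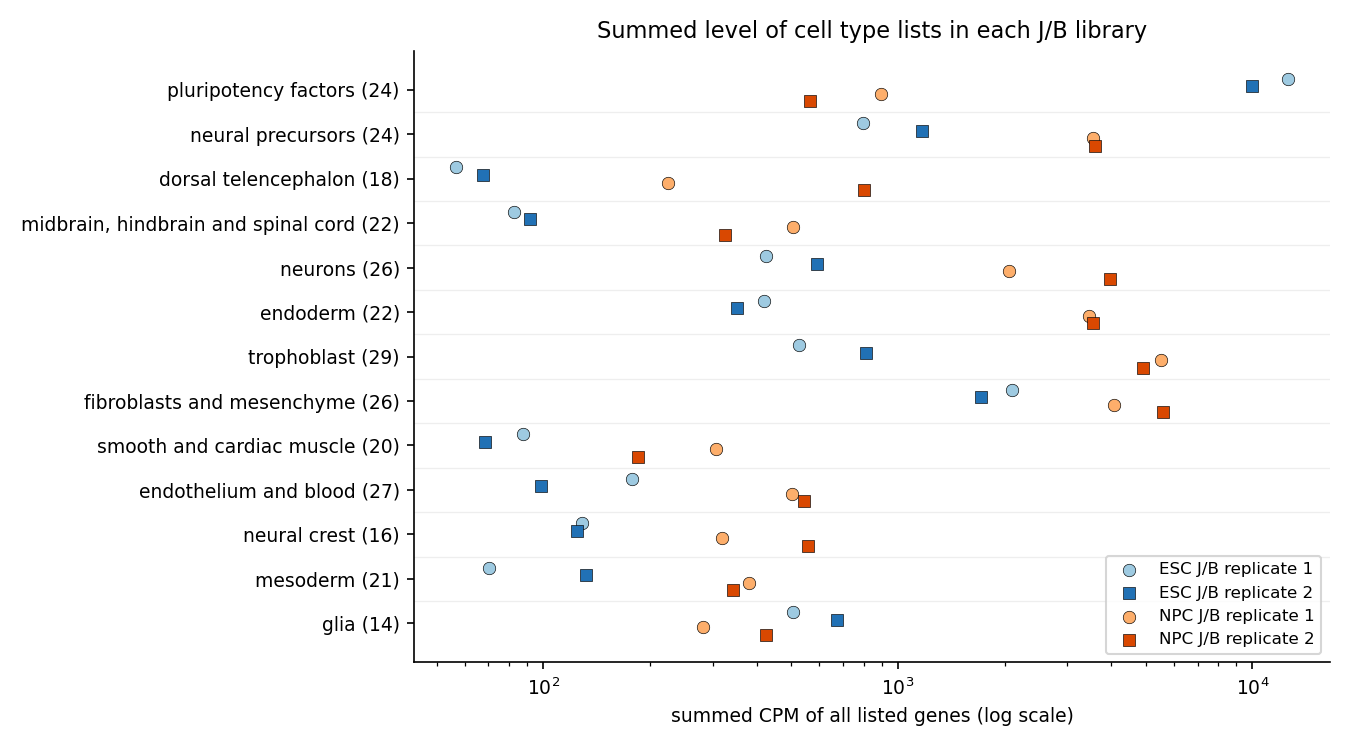
Summed CPM of all genes of each cell type list (x axis, log scale; number of genes in parentheses), with 1 point for each J/B library. The pluripotency sum falls from 12610 and 9940 CPM to 896 and 565 CPM. The neural, endoderm (in NPCs mostly *Col4a1*), trophoblast and mesenchymal sums rise. The dorsal telencephalon sum differs most between the NPC replicates (225 and 804 CPM).

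Genes that mark other lineages rose together with the neural genes, and their part in the other results was not tested. Of 29 trophoblast genes, 28 were tested, 22 rose and none fell (median 5.26, or 5.02 with the 9 tested genes at 0 in ESCs at their lower bounds). In each of 5 alternatives 1 gene of the list was called lower: with only the J/B libraries, without NPC replicate 2, without it and ESC replicate 1, and without either B/J NPC library. Their sum was 526 and 812 CPM in ESCs and 5539 and 4913 CPM in NPCs, above that of the neural precursor list in both NPC libraries (3552 and 3607 CPM), though the imprinted gene *Peg10* alone made up 2405 and 2598 CPM of it. *Krt8* and *Krt18*, the paired keratins of simple epithelia, were read at 10.03 and 20.6 CPM in ESCs and 894 and 568 CPM in NPCs (5.11 ± 0.94, adjusted p = 0.00333) and at 5.81 and 9.69 CPM in ESCs and 535 and 392 CPM in NPCs (5.42 ± 0.79, adjusted p = 0.00125). The 10 largest rises of the whole comparison by fitted fold change were of genes with 0 counts in both ESC libraries. For such genes the fitted value, and so the ranking, depends on the prior count. They included *Ctsj*, a placental cathepsin, at 296 and 252 CPM (at least 3237-fold higher, adjusted p = 0.00019), and *Tpbpa*, the marker of spongiotrophoblast, at 281 and 171 CPM (at least 2729-fold higher, adjusted p = 0.000453). *Prl2a1*, *Prl2c5* and *Prl7d1* of the prolactin family, *Psg29*, *Pappa2* and *1600012P17Rik* were also among them, placental genes for the most part, with means of 74.7 to 222 CPM in NPCs. The span of *1600012P17Rik* lies within that of *Pappa2* on the same strand, so both may count reads of 1 locus. The remaining genes were *Tfap2b*, a neural crest factor, at 51.3 and 199.9 CPM, and *Vtn*, which encodes vitronectin, at 59.8 and 79.6 CPM.

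Of the 26263 genes counted, 170 (0.647%) had 0 counts in both ESC libraries and at least 1 CPM in both NPC libraries, a choice that fixes their direction. Among them, 15 of the 27 counted genes whose symbol begins with Prl and a digit or is Prl itself, 6 of 13 Psg genes and 5 of 24 Cts genes were found, families chosen after their values were seen. Such families hold close copies, and how reads were divided between copies is not known here. Of the other families counted, 4 of 16 Ceacam, 4 of 65 Serpin and 1 of 45 Hox genes were in the set. It also held members of the Pcdha and Pcdhb families, *Stmn4*, *Negr1* and *Nrn1*. In the reverse direction, only 4 genes were at 0 in both NPC libraries and at 1 CPM or more in both ESC libraries. These were *2310043M15Rik*, read at 11.7 and 5.7 CPM in ESCs (at least 229-fold lower in NPCs, adjusted p = 0.000563), *6330410L21Rik*, *Tmprss11d* and *1700057H21Rik*. All 4 were among the 10 largest falls by fitted fold change, with *Mep1b*, *Rbfaos*, *Fcgr2b*, *Obox6*, *Clec4a1* and *Zscan5b*. Except for *1700057H21Rik* (2.66 and 2.72 CPM), these 10 were higher in ESC replicate 1 than in ESC replicate 2. *Obox6*, a homeobox gene of the early embryo, was read at 57.7 and 0.113 CPM. Its call (adjusted p = 0.0163) was lost without ESC replicate 1 (0.246), without NPC replicate 1 (0.0901) and without NPC replicate 2 (0.084), over a range of 9.35e-05 to 0.246. That of *Zscan5b* (adjusted p = 0.0173) was lost without the same libraries, with values of 0.0593, 0.0652 and 0.0688 in that order (range 0.000212 to 0.134). *Clec4a1* (adjusted p = 0.0125) was no longer called without NPC replicate 1 (0.0504) or NPC replicate 2 (0.054, range 7.8e-06 to 0.0947).

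Endodermal and mesenchymal genes also rose. Of 22 endoderm genes, 20 were tested and 13 rose with none falling (median 2.53), though 2 fell when either ESC replicate was left out. The basement membrane gene *Col4a1*, not restricted to endoderm, was read at 59.5 and 19.6 CPM in ESCs and 1813 and 1966 CPM in NPCs (5.07 ± 0.54, adjusted p = 0.000452). The endoderm list summed to 3468 and 3556 CPM in NPCs, so that *Col4a1* alone made up most of it. Among genes of liver and yolk sac, *Afp* (0.153 and 0.234 CPM) and *Apoa1* (0.183 and 0.0781 CPM) were near 0 in NPCs. *Ttr*, in contrast, had 0 counts in ESCs and 334 in NPCs, at least 67.1-fold higher. Its call was lost with no low-count filter (adjusted p = 0.0841 in edgeR) and without NPC replicate 2. Of 26 genes of fibroblasts and mesenchyme, 25 were tested, 20 rose and 1 fell (median 4.28). The collagen gene *Col3a1* was read at 13.2 and 1.06 CPM in ESCs and 524 and 1186 CPM in NPCs (6.40 ± 1.27, adjusted p = 0.00451), and *Lum*, a proteoglycan of connective tissue, rose from 3 counts to 40.7 and 148 CPM (adjusted p = 0.000446). *Fn1*, already at 1767 and 1460 CPM in ESCs, and at 1591 and 1514 CPM in NPCs, was the member called lower (-0.55 ± 0.19, adjusted p = 0.0387), with the sign turned on the housekeeping scale (0.21). That call was lost in 12 of 20 alternatives, among them without ESC replicate 1 (adjusted p = 0.227), NPC replicate 1 (0.0795) or NPC replicate 2 (0.14, range 0.0127 to 0.792).

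Genes of endothelium and blood moved in both directions. Of 27 listed, 20 were tested, 9 rose and 2 fell, and 3 were called higher without NPC replicate 2. Without ESC replicate 1, 6 rose, and without ESC replicate 2, 7 rose and 5 fell. *Cdh5*, which encodes VE-cadherin, was read at 0.266 and 0.113 CPM in ESCs and 306 and 254 CPM in NPCs (10.05 ± 0.59, adjusted p = 0.000125), and *Flt1*, a VEGF receptor that trophoblast giant cells also express, at 0.355 and 1.81 CPM in ESCs and 147 and 213 CPM in NPCs (6.87 ± 0.74, adjusted p = 0.000474). In contrast, *Eng* was read at 74 and 49.5 CPM in ESCs and 0.917 and 0.898 CPM in NPCs (-6.57 ± 0.43, adjusted p = 0.000136) and *Pecam1*, which ESCs express, at 84.8 and 36.5 CPM in ESCs and 8.65 and 7.81 CPM in NPCs (-3.38 ± 0.50, adjusted p = 0.00136). The adult globin genes *Hba-a1*, *Hba-a2*, *Hbb-bt* and *Hbb-bs* had 0 counts in all 4 libraries. The embryonic globin genes *Hba-x*, *Hbb-bh1* and *Hbb-y* had 0 counts in ESCs and 10, 10 and 4 counts over both NPC libraries. The list's median was 2.52, or 1.22 with genes at 0 in ESCs at their lower bounds. Of 16 neural crest genes 10 rose and 3 fell, of 21 mesoderm genes 19 were tested, 7 rose and 2 fell, and of 20 smooth and cardiac muscle genes 18 were tested, 9 rose and 3 fell. Muscle genes called higher numbered 4 to 6 when any of the 4 J/B libraries was left out, and those of mesoderm 4 without ESC replicate 1. *Twist1*, of mesenchyme and crest, was read at 1.95 and 5.81 CPM in ESCs and 40.5 and 57.7 CPM in NPCs (3.18 ± 0.47, adjusted p = 0.00135) and the myosin gene *Myh7* at 0.222 and 0.0754 CPM in ESCs and 18.2 and 6.32 CPM in NPCs (5.88 ± 0.84, adjusted p = 0.00117).

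**Figure D4:**
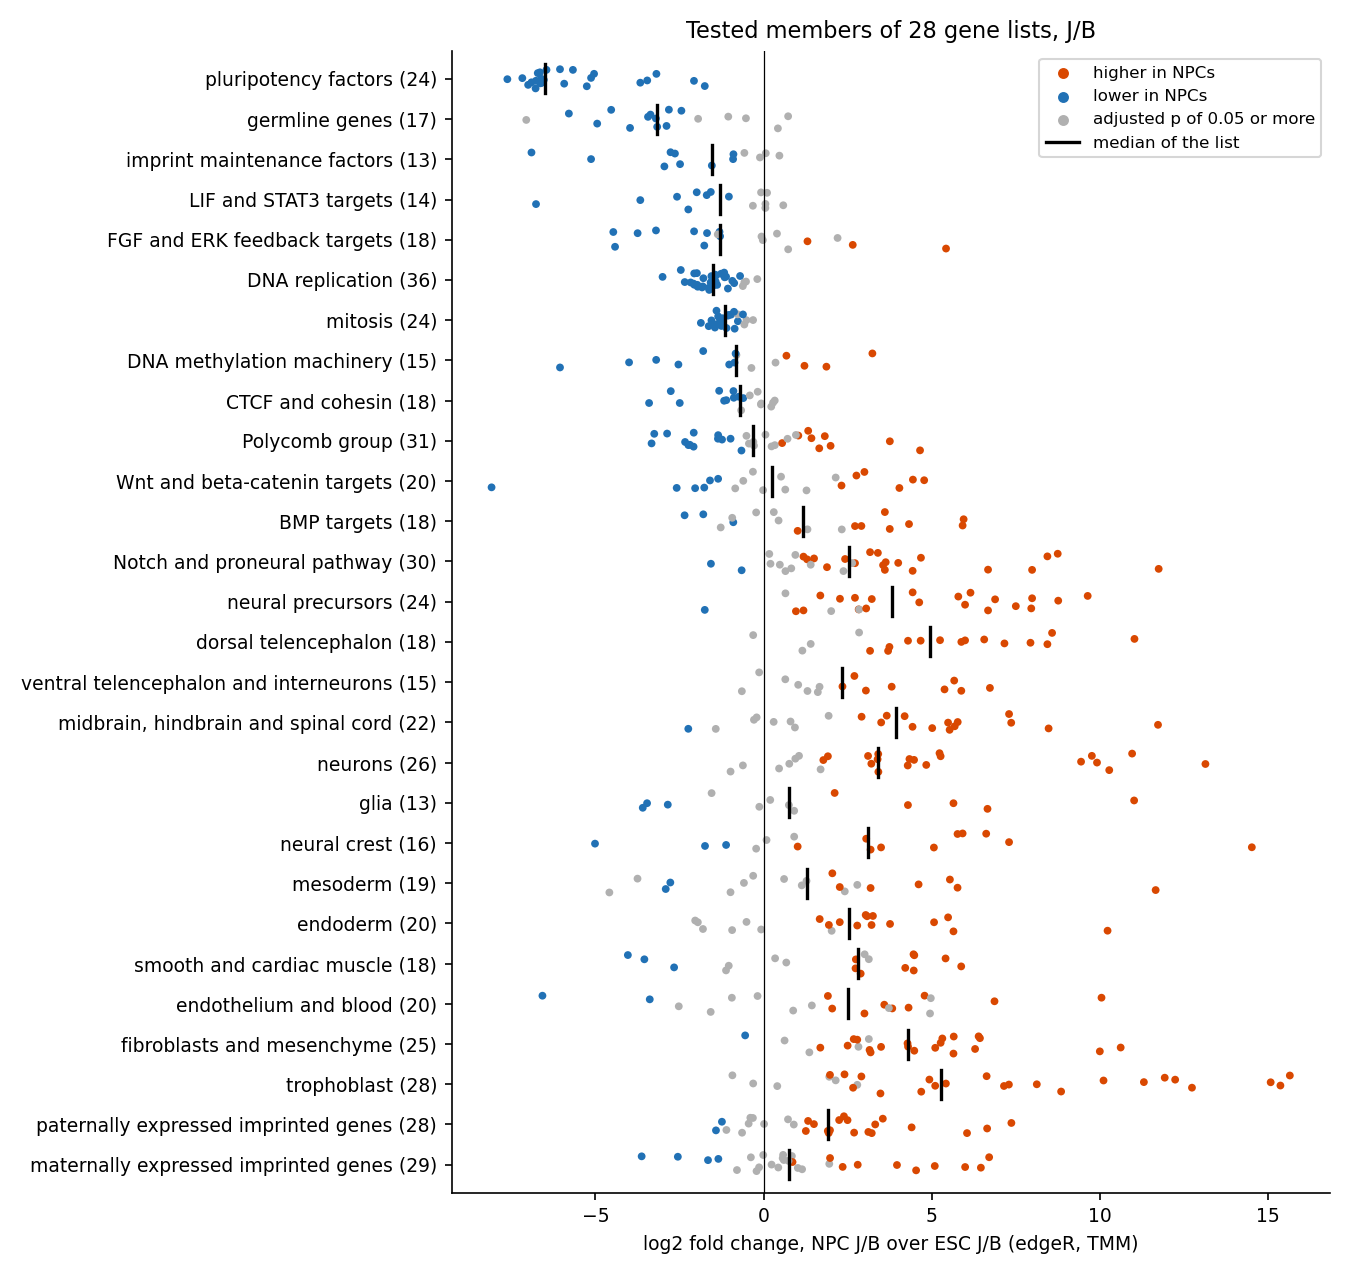
Log2 fold change from ESCs to NPCs in J/B (x axis, edgeR with TMM) of every tested member of 28 gene lists, with the number tested in parentheses, colored by call, and the list median as a black bar. The pluripotency list lies wholly below 0 (median −6.49), DNA replication and mitosis genes form narrow groups below 0, and the neural, trophoblast and mesenchymal lists reach far to the right.

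The 5 genes of the *Peg13*-*Kcnk9* domain on chromosome 15 changed in different ways. *Peg13* (chr15:72677449-72682173 in GRCm39, GENCODE vM39, minus strand) lies within the span of *Trappc9* (chr15:72461467-72934559, same strand), so reads of the longer gene could fall on it. It was read at 3.64 and 6.11 CPM in ESCs and 23.2 and 53.7 CPM in NPCs, higher in both NPC libraries than in both ESC libraries, with a log2 fold change of 2.50 ± 0.57 (SE, adjusted p = 0.00817). The call was lost without NPC replicate 2 (adjusted p = 0.0578), and over all alternatives adjusted p lay between 3.52e-05 and 0.154. *Kcnk9* (chr15:72372938-72419556, minus strand), a K2P channel that lets potassium leak out of neurons, had 3 counts in the 2 ESC libraries and 520 in the NPC libraries, at 0.0444 and 0.0754 CPM in ESCs and 4.98 and 13.9 CPM in NPCs. With TMM factors the ratio of NPCs to ESCs was 104 with a 95% counting interval of 35.5 to 508, and on library totals 146 with a 95% counting interval of 49.6 to 709, intervals that cover counting error only. The edgeR test gave an adjusted p of 0.00668, between 2.75e-06 and 0.0802 over the alternatives, and it was lost where ESC replicate 1 and NPC replicate 2 were both left out (0.0802).

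The neighbors without this rise were *Trappc9*, *Chrac1* and *Ago2*. *Trappc9*, a subunit of a complex in vesicle transport, was read at 28 and 24.3 CPM in ESCs and 41.5 and 48.4 CPM in NPCs (0.29 ± 0.23, adjusted p = 0.31), and was called higher on library totals (adjusted p = 0.0211) and on the housekeeping scale (0.0126, range 0.0126 to 0.946). *Chrac1*, a histone-fold protein of chromatin remodeling complexes, was read at 23.8 and 26.1 CPM in ESCs and 17.7 and 14.9 CPM in NPCs (-1.10 ± 0.24, adjusted p = 0.00622), a call lost without NPC replicate 2 (adjusted p = 0.0525) and on library totals (0.0554, range 6.93e-05 to 0.24). *Ago2*, the slicing Argonaute protein, was read at 226 and 171 CPM in ESCs and 161 and 164 CPM in NPCs (-0.78 ± 0.25, adjusted p = 0.0286), and was no longer called on library totals (adjusted p = 0.324) or without ESC replicate 1 (0.16), NPC replicate 1 (0.0949) or NPC replicate 2 (0.108, range 0.003 to 0.965). The annotated spans of *Chrac1* and *Ago2* overlap on opposite strands, and how the counting used strand is not known here.

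In the K2P channel family to which *Kcnk9* belongs, 10 of 14 genes were tested, 6 rose and 1 fell. *Kcnk10* had 2 counts in ESCs and 8.81 and 14.2 CPM in NPCs, a ratio of 197 with a 95% counting interval of 54.3 to 1629 (adjusted p = 0.000648). *Kcnk2* was read at 1.24 and 1.47 CPM in ESCs and 8.04 and 32.6 CPM in NPCs (3.41 ± 0.73, adjusted p = 0.00619), a call lost without ESC replicate 1 and NPC replicate 2 together (adjusted p = 0.0916, range 4.75e-06 to 0.0916). *Kcnk5*, the most abundant member in ESCs, fell from 97.2 and 52 CPM to 37 and 26.8 CPM (-1.72 ± 0.44, adjusted p = 0.0127), a call lost without ESC replicate 1 (adjusted p = 0.0688) and without NPC replicate 2 (0.0842, range 0.00046 to 0.212). K2P genes called higher numbered 3 or 4 when any of the 4 J/B libraries was left out.

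Other imprinted genes, which are expressed from a single parental allele, mostly rose where they are paternally expressed. Of 29 paternally expressed genes, 28 were tested, 18 rose and 2 fell (median 1.93). Of 33 maternally expressed genes, 29 were tested, 10 rose and 4 fell (median 0.74), with 14 rises and 1 fall on the housekeeping scale. The fetal growth factor gene *Igf2* was read at 8.34 and 13.5 CPM in ESCs and 1990 and 3045 CPM in NPCs (7.37 ± 0.53, adjusted p = 0.000166), and the non-coding RNA *H19*, made from the other allele of the same domain, at 36.7 and 39.3 CPM in ESCs and 2621 and 4171 CPM in NPCs (6.00 ± 0.54, adjusted p = 0.000287). Both were among the 10 most abundant genes in NPCs, with *Peg10* (384 and 528 CPM in ESCs and 2405 and 2598 CPM in NPCs, 1.98 ± 0.28, adjusted p = 0.00111), a retrotransposon-derived gene of placenta. *Nnat*, a proteolipid of the developing brain, was read at 2.57 and 7.81 CPM in ESCs and 462 and 991 CPM in NPCs (6.65 ± 0.67, adjusted p = 0.000393), and *Gnas*, which encodes a G protein subunit, at 153 and 308 CPM in ESCs and 1226 and 1296 CPM in NPCs (1.98 ± 0.31, adjusted p = 0.00161). For none of these 5 genes did the stages overlap, as was the case for 43.1% of all genes tested, in this direction. *Slc22a3*, an organic cation transporter, had 3 counts in ESCs and 3.91 and 12.1 CPM in NPCs, a ratio of 87.8 with a 95% counting interval of 29.9 to 427 (adjusted p = 0.00172). *Meg3* overlapped between the stages (168 and 611 CPM in ESCs and 586 and 1342 CPM in NPCs, adjusted p = 0.264), and was called higher without ESC replicate 2 (adjusted p = 0.0278) and with the replicate block (0.0404, range 0.0278 to 0.893). *Igf2*, *H19* and *Peg10* are also abundant in placenta and mesenchyme, whose lists rose with them. Without NPC replicate 2, 13 paternally and 10 maternally expressed genes were called higher.

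Most factors that keep imprints were lower in NPCs. Of 15 imprint maintenance genes, 13 were tested, 9 fell, none rose and 4 did not pass the test (median -1.54), and 7 fell and 1 rose on library totals as on the housekeeping scale. *Trim28*, the KAP1 corepressor, was read at 3061 and 2593 CPM in ESCs and 808 and 613 CPM in NPCs (-2.48 ± 0.22, adjusted p = 0.000273), and *Zfp57*, the zinc finger protein that brings it to methylated imprinting control regions, at 582 and 395 CPM in ESCs and 61.4 and 142 CPM in NPCs (-2.77 ± 0.45, adjusted p = 0.00197). *Dppa3*, which protects maternal methylation in the zygote, was read at 6.92 and 33.1 CPM in ESCs and 0.183 and 0.273 CPM in NPCs (-6.90 ± 0.87, adjusted p = 0.000767). Among 15 genes of DNA methylation, 8 fell and 4 rose (median -0.83), with 2 rises without ESC replicate 1 or NPC replicate 2. On library totals 6 fell and 5 rose (median -0.36), and on the housekeeping scale 4 fell and 5 rose (median -0.10). *Tet1* was read at 791 and 509.5 CPM in ESCs and 43.2 and 71.8 CPM in NPCs (-4.00 ± 0.59, adjusted p = 0.00131) and *Tet3* at 10.5 and 17.8 CPM in ESCs and 174 and 197 CPM in NPCs (3.24 ± 0.33, adjusted p = 0.000394), so that the paralogous 5-methylcytosine oxidases moved in opposite directions. *Dnmt3l*, the cofactor of the *de novo* methyltransferases, fell from 104 and 222 CPM to 1.77 and 5.11 CPM (-6.05 ± 0.77, adjusted p = 0.000785).

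For architectural and Polycomb genes the sign of the median depended on the scale. Of 18 genes of CTCF and cohesin, 10 fell and none rose with TMM (median -0.70), but the median was 0.06 on the housekeeping scale, with 3 falls and 2 rises. *Ctcf* was read at 215 and 236 CPM in ESCs and 167 and 172 CPM in NPCs (-0.89 ± 0.19, adjusted p = 0.00548), and was no longer called on library totals (adjusted p = 0.118, range 9.62e-05 to 0.635). *Esco2*, the cohesin acetyltransferase of S phase, fell from 168 and 241 CPM to 30.9 and 22.9 CPM (-3.40 ± 0.30, adjusted p = 0.00026). Of 31 Polycomb genes, 9 rose and 13 fell (median -0.30 with TMM, 0.18 on library totals). On the housekeeping scale 14 rose and 9 fell. A pair of chromobox subunits of PRC1 moved in opposite directions. *Cbx7* was read at 198 and 246 CPM in ESCs and 30.8 and 30.9 CPM in NPCs (-3.33 ± 0.21, adjusted p = 0.000125) and *Cbx8* at 0.577 and 0.792 CPM in ESCs and 12.3 and 13.7 CPM in NPCs (3.76 ± 0.48, adjusted p = 0.000793).

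Genes of cell division fell as narrow groups. Of 36 DNA replication genes, 32 fell and none rose (median -1.50, and -0.77 with 23 falls on the housekeeping scale). *Mcm2*, a subunit of the replicative helicase, was read at 639 and 496 CPM in ESCs and 236 and 146 CPM in NPCs (-2.06 ± 0.29, adjusted p = 0.00106), and *Orc1*, of the origin recognition complex, at 93.7 and 103 CPM in ESCs and 21.5 and 12.8 CPM in NPCs (-3.00 ± 0.27, adjusted p = 0.000252). Of 24 mitosis genes, 20 fell and none rose (median -1.15, with 6 falls on the housekeeping scale and 15 without NPC replicate 2). *Ccnb1* was read at 538 and 441 CPM in ESCs and 229.6 and 148 CPM in NPCs (-1.86 ± 0.26, adjusted p = 0.00102). *Mki67* did not pass the test (389.6 and 313 CPM in ESCs and 339.5 and 356 CPM in NPCs, adjusted p = 0.17). It was called lower only in the replicate 1 contrast (0.0111, range 0.0111 to 0.967). Among 21 G1 cyclins and CDK inhibitors 7 rose and 6 fell, or 5 and 2 without NPC replicate 2, and 9 and 1 on the housekeeping scale. *Ccnd2* was read at 12.4 and 17.9 CPM in ESCs and 339 and 347 CPM in NPCs (4.02 ± 0.39, adjusted p = 0.000339), the imprinted inhibitor *Cdkn1c* at 9.05 and 41.6 CPM in ESCs and 548 and 543 CPM in NPCs (3.97 ± 0.73, adjusted p = 0.00335), and *Ccne1*, high throughout the cycle in mouse ESCs, at 257 and 265 CPM in ESCs and 57.1 and 33.7 CPM in NPCs (-3.01 ± 0.29, adjusted p = 0.000327).

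The change in J/B was set beside that in B/J, which was measured in other libraries of the same fit. Both crosses share the same estimate of the spread, so their calls are not independent. Of the 8935 genes called in J/B, 8897 had the same sign in B/J and 7727 were also called there in the same direction, while 2 were called in the opposite direction. Across the 16399 genes, which are not independent, the log2 fold changes correlated with r = 0.92. The interaction of stage and cross, the test of the difference itself, called 0 genes in edgeR (0%), with 573 at an unadjusted p below 0.05 (3.49%, and 2.7% with the lower change in J/B), 0 in limma-voom and 11 in DESeq2. With 2 libraries in each group this does not show that the crosses changed alike.

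Some lists lay to one side in J/B, without any gene called, beside 51.8% of all genes tested with a difference below 0 and 48.2% above it. For 21 of the 24 pluripotency genes the fall was larger in J/B than in B/J (median difference -1.37), and their sum in B/J NPCs was 442 and 927 CPM, a range that holds both J/B values. *Utf1*, with the smallest p among genes lower in J/B, was read at 212 and 285 CPM in ESCs and 9.02 and 9.13 CPM in NPCs in J/B and at 229.7 and 321 CPM in ESCs and 30.9 and 30.4 CPM in NPCs in B/J (difference -1.62 ± 0.29, unadjusted p = 0.000593). *Tmsb4x*, with the smallest p in the other direction, was read at 64.4 and 68 CPM in ESCs and 813 and 848 CPM in NPCs in J/B and at 215 and 215 CPM in ESCs and 905 and 713 CPM in NPCs in B/J (1.72 ± 0.26, unadjusted p = 0.00017). Neither passed adjustment. Among neuronal genes the difference was above 0 for 22 of 26 (median 1.02), and among 28 trophoblast genes it was below 0 for 23 (median -0.97). It was also below 0 for all 17 germline genes tested (median -2.02) and for 19 of 20 genes of endothelium and blood (median -1.62). At 0 in both J/B ESC libraries were 9 of the trophoblast genes, 3 of endothelium and blood and 1 neuronal gene. Their fitted differences depend on the prior count. The trophoblast sum was 10780 and 6539 CPM in B/J NPCs, above both J/B values. For *Peg13* the difference was 0.56 ± 0.77 (unadjusted p = 0.492). *Kcnk9* had 0 counts in both B/J ESC libraries, so its fitted difference depends on the prior count and is not given.

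**Figure D5:**
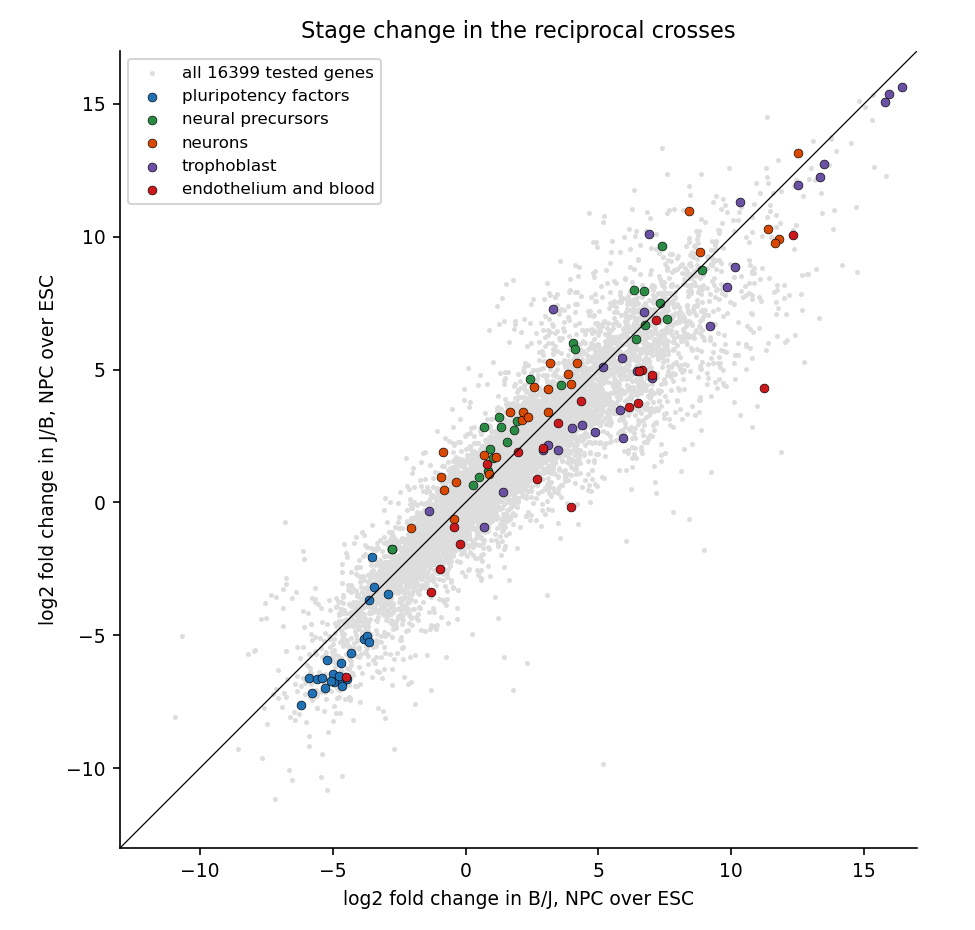
Log2 fold change from ESCs to NPCs in J/B (y axis) against B/J (x axis) for the 16399 tested genes in gray and for 5 gene lists in color, with the line of equality. Most pluripotency genes lie below the line and most neuronal genes above it, while the trophoblast genes scatter around and below it.

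The replicates of a stage differed for some developmental genes. In NPCs, the genes of at least 10 CPM that differed most in favor of replicate 2 were *Krt5*, *Neurod6*, *Neurod2*, *Tbr1* and *Rspo2*, and in favor of replicate 1 *Meox1*, *Aplnr*, *Atp8b3*, *Acan* and *Hoxb9*. *Rspo2*, a Wnt agonist, was read at 0.0887 and 0.0754 CPM in ESCs and 9.91 and 114 CPM in NPCs, and *Hoxb9*, a trunk identity gene, at 1.33 and 1.43 CPM in ESCs and 63.6 and 11.1 CPM in NPCs. The keratin gene *Krt5* stood at 1.34 and 29.3 CPM, and *Meox1*, of somites, at 20.8 and 1.68 CPM. In ESCs, *Esrp1*, *Otx2*, *Id2*, *Sema6a* and *Erdr1* were higher in replicate 2, and *Obox6*, *Stra8*, *Zscan4f*, *Myo1f* and *Cfap206* in replicate 1. *Otx2*, a factor of the formative state that follows naive pluripotency, was read at 0.932 and 22.6 CPM in ESCs and 46 and 73.3 CPM in NPCs and did not pass the test (adjusted p = 0.278). It was called with the replicate number as a block (adjusted p = 0.0454) and in the replicate 1 contrast (9.76e-05), and the largest value over the alternatives was 0.782. It was also called where ESC replicate 2 was left out (log2 fold change 5.48). *Zscan4f*, a gene of the 2-cell-like state, was read at 20.1 and 0.0377 CPM in ESCs and 0.0612 and 0.468 CPM in NPCs (adjusted p = 0.0628). It was called in the replicate 1 contrast (0.000313, range 0.000313 to 0.503) and where ESC replicate 2 was left out (log2 fold change -6.79).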

How the data were processed

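mRNA was sequenced in 8 libraries, 2 each of ESCs and day 12 NPCs of crosses J/B and B/J. The authors deposited raw counts per gene over both alleles. Reads had been aligned with TopHat2 to mm39, with SNPs between the strains masked, and kept as proper pairs of high mapping quality. The submitters' processing notes also name HTSeq, DESeq2 and edgeR. The strand setting of the counter, tool versions and the kit used for each library are not stated. Rows naming no gene (6.65% to 10.9% of a J/B library for reads without a gene and 0.355% to 0.554% for ambiguous reads) were left out. Depth was 22537138 to 32706015 counts, and intervals cover counting error only.

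Genes passing filterByExpr (minimum count 10) were tested with edgeR 4.0.16 in R 4.3.3: TMM scaling, quasi-likelihood fit (robust) of 4 group means over 8 libraries, so that B/J libraries contribute to the spread, and Benjamini-Hochberg adjustment over 16399 genes at 0.05. Errors are standard errors of the log2 fold change. The difference between crosses was the interaction contrast. Ratios for genes with 1 to 3 counts in a group have exact 95% intervals, and for genes at 0 are bounds at 3 counts over the group. The procedure was tested on simulated data. Alternatives were other scalings (RLE, totals, *Gapdh*, *Gusb* and *Tbp*), no filter or a mean of 1 CPM, no robust estimation, only J/B libraries, DESeq2 1.42.0, limma-voom (limma 3.58.1), a replicate block and leaving out each library.

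Members and gene lists were chosen with earlier results of these data known. The genes named are those of the *Peg13*-*Kcnk9* domain, those the study measured, the 10 largest rises and falls, the 10 most abundant in each stage, the 3 most abundant and the 2 largest called rises and falls of each list, the 3 smallest interaction p in each direction and the 5 genes that differ most between replicates in each direction, as far as room allowed. *Nanog*, *Esrrb*, *Lin28a*, *Sox1*, *Hes5*, *Afp*, *Apoa1* and the globin genes, and *Grin1*, *Erbb3*, *Grem1* and *Slc38a4* in the closing section, were chosen after their values were seen. Promoters were RefSeq's. Some genes named by these rules are not reported here.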

Additional observations from a re-analysis of the deposited data

Results flagged for a closer look

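For 7 of the 682 tested genes of the lists or of the rules for named genes (1.03%, beside 0.713% of all 16399 genes tested), every NPC library lay on one side of every ESC library in J/B and on the other side in B/J, on the TMM scale. On the CPM values printed here, relative to library totals, only 1 of the 7, *Hsd17b10*, did so. The difference was tested as the interaction of stage and cross in edgeR, and was called for none of them (adjusted p = 0.9999 for each), so only the values are given. The genes were chosen by these same values, so the unadjusted p given below do not count as support for a difference. It is stated as the log2 fold change in J/B minus that in B/J.

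*Grin1*, an NMDA receptor subunit, was read at 0.621 and 2.41 CPM in ESCs and 5.04 and 10.9 CPM in NPCs in J/B and at 3.95 and 3.72 CPM in ESCs and 2.14 and 3.8 CPM in NPCs in B/J, a difference of 2.76 ± 0.96 (SE, unadjusted p = 0.0218). *Lama1*, a laminin chain of basement membranes, was read at 87.6 and 64.2 CPM in ESCs and 318 and 363 CPM in NPCs in J/B and at 80.02 and 77.6 CPM in ESCs and 77.2 and 100.1 CPM in NPCs in B/J, a difference of 1.97 ± 0.32 (SE, unadjusted p = 0.00029). *Hsd17b10*, a mitochondrial dehydrogenase, was read at 17.2 and 14.8 CPM in ESCs and 37.2 and 31.7 CPM in NPCs in J/B and at 58.2 and 55.5 CPM in ESCs and 47.5 and 43.6 CPM in NPCs in B/J, a difference of 1.41 ± 0.30 (SE, unadjusted p = 0.00162). *Grem1*, a BMP antagonist, stayed below 1 CPM in every library, and its difference was 2.95 ± 1.46 (SE, unadjusted p = 0.0795). In these 4 genes the NPC libraries were the higher ones in J/B and the lower ones in B/J on the TMM scale.

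In the other 3 genes the NPC libraries were the lower ones in J/B, again on the TMM scale. *Slc38a4*, an imprinted amino acid transporter, was read at 259.9 and 192 CPM in ESCs and 238 and 230.3 CPM in NPCs in J/B and at 163 and 190.2 CPM in ESCs and 784 and 507 CPM in NPCs in B/J, a difference of -1.85 ± 0.38 (SE, unadjusted p = 0.00136). *Rhox5*, an X-linked homeobox gene, was read at 119 and 66.2 CPM in ESCs and 66.9 and 59.8 CPM in NPCs in J/B and at 64.2 and 39.8 CPM in ESCs and 255 and 124 CPM in NPCs in B/J, a difference of -2.45 ± 0.63 (SE, unadjusted p = 0.00508). *Erbb3*, a neuregulin receptor of neural crest, was read at 41 and 21 CPM in ESCs and 17.4 and 23.1 CPM in NPCs in J/B and at 15.7 and 18.1 CPM in ESCs and 33.9 and 33.8 CPM in NPCs in B/J, a difference of -1.65 ± 0.49 (SE, unadjusted p = 0.0107).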

How the results depend on the processing

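Against 8935 genes called in J/B, 4547 were called without ESC replicate 1 and NPC replicate 2 together, a setting chosen after seeing the data (2497 higher and 2050 lower). Leaving out each library in turn gave 5700 to 8475 genes called, 3082 to 4582 higher and 2618 to 4037 lower, with the lowest counts without NPC J/B replicate 2. On library totals 2495 genes were lower, and after scaling to the housekeeping genes 7271 were higher and 1783 lower. The interaction of stage and cross called 11 genes in DESeq2 and 0 in every other alternative run, leave-one-out fits included (0 to 0). The log2 fold change of *Peg13* ranged from 1.78 to 2.95 over fits that left out 1 library, with adjusted p of 0.00785 to 0.0578 (over all alternatives 3.52e-05 to 0.154), and was 1.48 without both doubted libraries. That of *Kcnk9* ranged from 5.80 to 7.24 and was 5.53 without both. The fold change of *Fn1* turned to 0.21 with the housekeeping genes. That of *Esrp1*, not called at first, was −2.03 without both doubted libraries. It turned from -1.79 without ESC replicate 1 to 3.18 without ESC replicate 2. The cause of these shifts was not tested. With the replicate number as a block, 9760 genes were called (5246 higher and 4514 lower). In the replicate 1 contrast, also chosen after seeing the data, 9915 were called. That fit holds a replicate term for each stage and compares the stages at replicate 1 only, with no average over replicates. Deviations of same-numbered J/B ESC and NPC libraries correlated at 0.07, so the numbers were not taken to pair the stages. Between the crosses, same-numbered libraries of a stage correlated at 0.52 in ESCs and 0.59 in NPCs. Limits: 2 libraries a group and 1 line a cross; stage and medium changed together; the kit and instrument of each library are not stated; bulk counts do not separate cell types; genes with few counts have wide intervals.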

Other observations

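Of 12 genes in common use as references, 1 rose, 5 fell and 6 did not pass the test in J/B (adjusted p below 0.05 in edgeR, beside 29.1% and 25.3% of all genes tested). Their median log2 fold change was -0.50 with TMM, -0.02 on library totals and 0.23 on the housekeeping scale. *B2m*, the light chain of class I major histocompatibility molecules, was read at 3.86 and 4.87 CPM in ESCs and 138 and 129 CPM in NPCs (4.45 ± 0.31, adjusted p = 0.000152). *Ppia* was read at 2317 and 1618 CPM in ESCs and 936 and 717 CPM in NPCs (-1.75 ± 0.28, adjusted p = 0.00193) and *Hprt* at 82.3 and 96.7 CPM in ESCs and 40.8 and 39.3 CPM in NPCs (-1.64 ± 0.25, adjusted p = 0.00156). Of 20 glycolysis genes 11 fell and 2 rose with TMM, while 3 fell and 6 rose on the housekeeping scale. *Eno2*, the neuronal enolase, rose from 4.57 and 5.54 CPM to 50.2 and 116 CPM (3.55 ± 0.67, adjusted p = 0.00373; 0.0582 without ESC replicate 1 and NPC replicate 2 together), and *Hk2* was read at 316 and 353 CPM in ESCs and 125 and 132 CPM in NPCs (-1.87 ± 0.21, adjusted p = 0.000541).

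Of 18 germline genes, 17 were tested, 11 fell and none rose (median -3.16), with 7 falls and 1 rise without ESC replicate 1 and 5 falls without NPC replicate 2. *Stk31* was read at 9.49 and 8.0 CPM in ESCs and 0.306 and 0.117 CPM in NPCs (-5.79 ± 0.78, adjusted p = 0.00093) and *Ddx4*, the germ cell helicase, at 19.9 and 17.4 CPM in ESCs and 3.82 and 1.21 CPM in NPCs (-3.36 ± 0.58, adjusted p = 0.00239). Of 20 genes of stress and apoptosis, 9 fell and 1 rose, and 4 fell on the housekeeping scale. *Trp53* was read at 556 and 539 CPM in ESCs and 139 and 101 CPM in NPCs (-2.68 ± 0.21, adjusted p = 0.000206), and *Ddit3*, a factor of the unfolded protein response, at 2.66 and 3.4 CPM in ESCs and 14.1 and 19.7 CPM in NPCs (1.99 ± 0.34, adjusted p = 0.00227; 0.0603 without ESC replicate 1 and NPC replicate 2 together).

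Of 12 genes of the formative and primed state, 4 rose and 3 fell, and 1 fell without ESC replicate 2, on library totals and on the housekeeping scale. *Sox4* was read at 15 and 22.8 CPM in ESCs and 448 and 731 CPM in NPCs (4.48 ± 0.56, adjusted p = 0.000715).

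The calls of genes with a motif in the 250 bases before their start are given with no test. With TGGGAA, 734 of 2640 tested genes rose (27.8%) and 701 fell (26.6%). With TTTGCAT, 118 of 401 rose (29.4%) and 105 fell (26.2%). With ACAATG, 230 of 786 rose (29.3%) and 194 fell (24.7%), and with TTTGCAT and ACAATG both, 10 of 44 rose (22.7%) and 9 fell (20.5%). Over all 12817 tested genes with a sequence, 28.5% rose and 25.8% fell.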
